A study of Mus musculus with 4 samples.

Results

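The 10 genes described here encode ligands, receptors and an antagonist of TGF-beta and activin signaling, together with a matrix protein named for its induction by TGF-beta. They were chosen by name: every array probe whose gene name was Tgfb1, Tgfb2, Tgfb3, Inhba, Inhbb, Tgfbr1, Tgfbr2, Tgfbr3, Fst or Tgfbi was taken, which gave 15 of the 39429 probes on the array. All 10 genes had a probe above background and were among the 22461 genes tested. Of the 15 probes 14 were above background, the exception being 1 of the 4 Tgfbr1 probes.

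The study asked which genes respond to a loss of WNT signaling in the early ureter. The tissue was the E12.5 ureter of wild-type NMRI mice (sex not determined), cultured in serum-free medium for 18 h and pooled for RNA. Treated explants received 10 µM IWP-2 and control explants received the vehicle, DMSO, at 2:1000. IWP-2 inhibits Porcupine, the enzyme that lipidates WNT ligands before their secretion, in all cell types of the explant. RNA of 1 treated and 1 control pool was hybridized on each of 4 two-colour arrays, with treated RNA in the red channel on arrays 1 and 3 and in the green channel on arrays 2 and 4.

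TGF-beta ligands and activins are secreted dimers. They bind a type II receptor, which phosphorylates a type I receptor, and the active complex signals through SMAD2 and SMAD3. TGF-beta leaves the cell in a latent form that has to be activated in the matrix, whereas activin is held in check by the binding protein follistatin. In the developing urinary tract this pathway is known for its effects on branching of the ureteric epithelium and on the differentiation of mesenchyme into muscle and matrix-producing cells.

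Changes are given as log2 ratios of IWP-2 over control, averaged over the 4 arrays, with a 95% interval and an adjusted p from limma (Benjamini-Hochberg over all genes tested, threshold 0.05). Fst and Tgfb3 were lower in the treated pools, and Inhbb, Tgfbr3, Tgfbr2 and Tgfbi were higher. Thus 2 of 10 members passed the test as lower, where 15% of all genes tested did, and 4 of 10 passed as higher, where 18.1% of all genes did, so that 6 of 10 passed in either direction, beside 33.1% of all genes. The median log2 ratio over the 10 members was 0.02, beside 0.0011 over all genes tested. Fst, Inhbb and Tgfbr3 had the largest changes of the 10. Only 0.988% of the genes tested changed by as much as Fst in either direction, 1.20% by as much as Inhbb and 2.35% by as much as Tgfbr3.

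**Figure D1:**
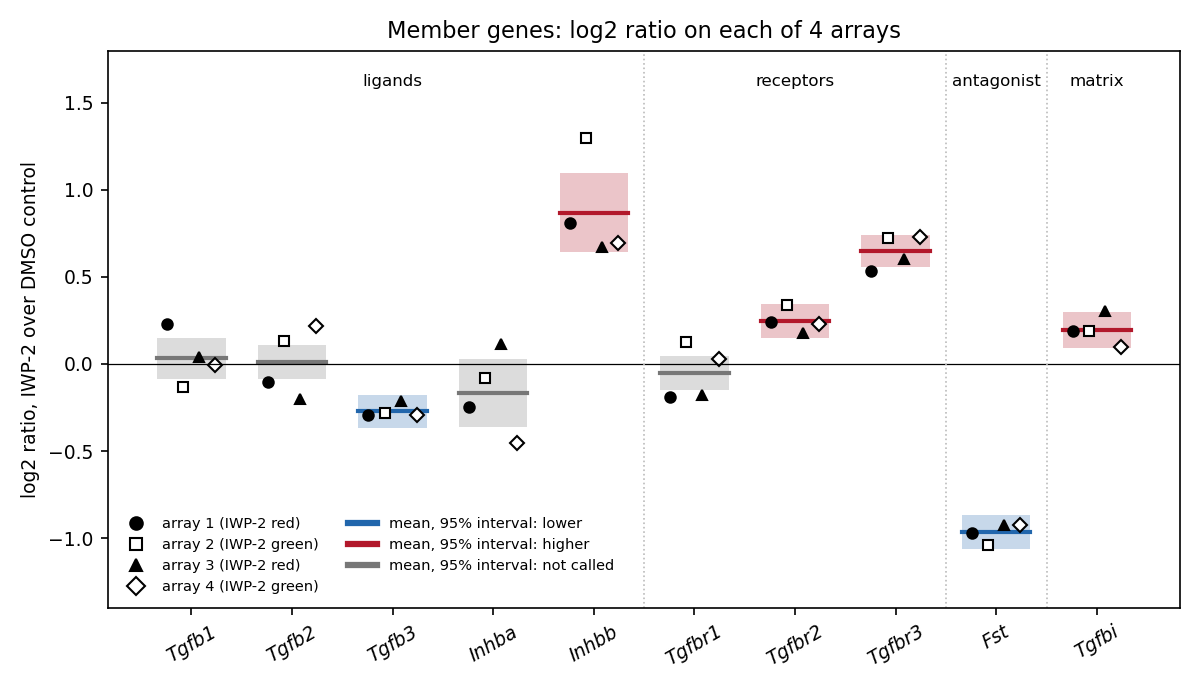
Log2 ratio of IWP-2 over DMSO control for the 10 members on each of the 4 arrays (points, filled where treated RNA was red and open where it was green), with the mean (line) and its 95% interval (shaded) coloured by the outcome of the limma test. Fst lies near -1 on all 4 arrays, Inhbb and Tgfbr3 lie above 0.5 on all 4, and the 4 genes that did not pass have arrays on both sides of 0.

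The arrays were of similar quality. Between 75.9% and 80.7% of gene spots were well above background in either channel, no spot was saturated, and the log2 ratios of pairs of arrays correlated across genes with r of 0.62 to 0.83, highest for pairs with the same dye order. The direct WNT targets Axin2, Lef1, Nkd1 and Sp5 had log2 ratios of -1.56, -1.47, -1.59 and -2.72 (adjusted p at most 1.7e-05, limma). With the mean over its probes Axin2 was at -1.07. All marker genes listed for 8 cell types were above background, and several moved with the treatment. All 5 smooth muscle markers were lower (median -0.73), with a summed processed signal of 7216 to 13640 in the controls and 4590 to 7763 in the treated pools. All 7 epithelial markers were higher (median 0.30, sums of 40882 to 54041 and 46388 to 67147). Of 6 mesenchymal markers 2 were lower and 2 higher, of 6 endothelial markers 4 were higher, and of 6 macrophage markers 4 were higher. Of the 5 genes in each of the other 3 lists, 3 blood markers and 2 neural crest markers were higher, and of the nephron progenitor markers 4 were higher and 1 was lower. In RNA of whole ureters, fewer cells of a type and less RNA per cell cannot be told apart, and the part of these shifts in the changes of the members was not tested.

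Among the ligands, Inhbb encodes the beta B subunit of activin and inhibin. Its probe (mm9 chr1:121312160-121312219, minus strand) gave normalized log2 signals of 9.92, 8.81, 9.80 and 9.81 in the controls of arrays 1 to 4 and of 10.73, 10.10, 10.47 and 10.51 in the treated pools. Every treated pool lay above every control, and the control of array 2 lay about 1 log2 unit under the other 3 controls. The log2 ratios were 0.81, 1.30, 0.67 and 0.70, with a mean of 0.87 (95% interval 0.64 to 1.10, adjusted p = 0.00128, limma), a 1.83-fold higher level. Without array 2 the mean was 0.72 (adjusted p = 0.000103), and over 18 alternative fits the adjusted p ranged from 1.4e-05 to 0.0603, the highest with the deposited table of rounded fold changes. Inhbb thus held the largest rise of the 10 genes and ranked 61 of the 22461 genes tested, counted from the highest log2 ratio.

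Inhba encodes the beta A subunit and was measured by 1 dim probe (mm9 chr13:16118634-16118693, plus strand). Its log2 ratios were -0.25, -0.08, 0.12 and -0.45, with a mean of -0.17 (95% interval -0.36 to 0.03, adjusted p = 0.167, limma). The arrays disagreed in direction, and control and treated signals overlapped. Processed intensities ran from 67.0 to 110.7 in the controls and from 58.2 to 93.5 in the treated pools. Inhba passed the test in 2 of 17 alternative fits, at adjusted p = 0.0415 without array 2 and 0.0268 with arrays 1 and 2 and arrays 3 and 4 averaged, within a range of 0.0268 to 0.548. The log2 ratio of Inhbb exceeded that of Inhba on all 4 arrays, by 1.04 ± 0.35 (SD, n = 4).

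Tgfb3, the TGF-beta ligand best known from palate and lung development, fell modestly. Its log2 ratios were -0.29, -0.28, -0.21 and -0.30 (mm9 chr12:87397804-87397863, minus strand). The 4 arrays lay close together, and control signals of 14.52 to 14.61 did not overlap treated signals of 14.23 to 14.39. The mean was -0.27 (95% interval -0.37 to -0.18, adjusted p = 0.00369, limma), a 1.21-fold lower level. The adjusted p ranged from 4.3e-04 to 0.0603 over 18 alternative fits and missed the threshold only with the deposited table of rounded fold changes.

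Tgfb2, a ligand expressed widely in embryonic mesenchyme, had a bright probe (mm9 chr1:188449333-188449392, minus strand) with log2 ratios of -0.11, 0.13, -0.20 and 0.22. The sign followed the dye order, being negative where treated RNA was red and positive where it was green, with a mean of -0.15 over arrays 1 and 3 and of 0.18 over arrays 2 and 4. The balanced mean was 0.01 (95% interval -0.09 to 0.11, adjusted p = 0.864, limma). A second probe of Tgfb2 averaged -0.07 ± 0.11 (SD, n = 4). Tgfb1, the founding member of the family, was measured by 1 dim probe (mm9 chr7:26489877-26489936, plus strand), with processed intensities of 46.9 to 69.1 over all channels. Its log2 ratios of 0.23, -0.13, 0.04 and -0.01 lay on both sides of 0 (mean 0.03, 95% interval -0.09 to 0.15, adjusted p = 0.655, limma).

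**Figure D2:**
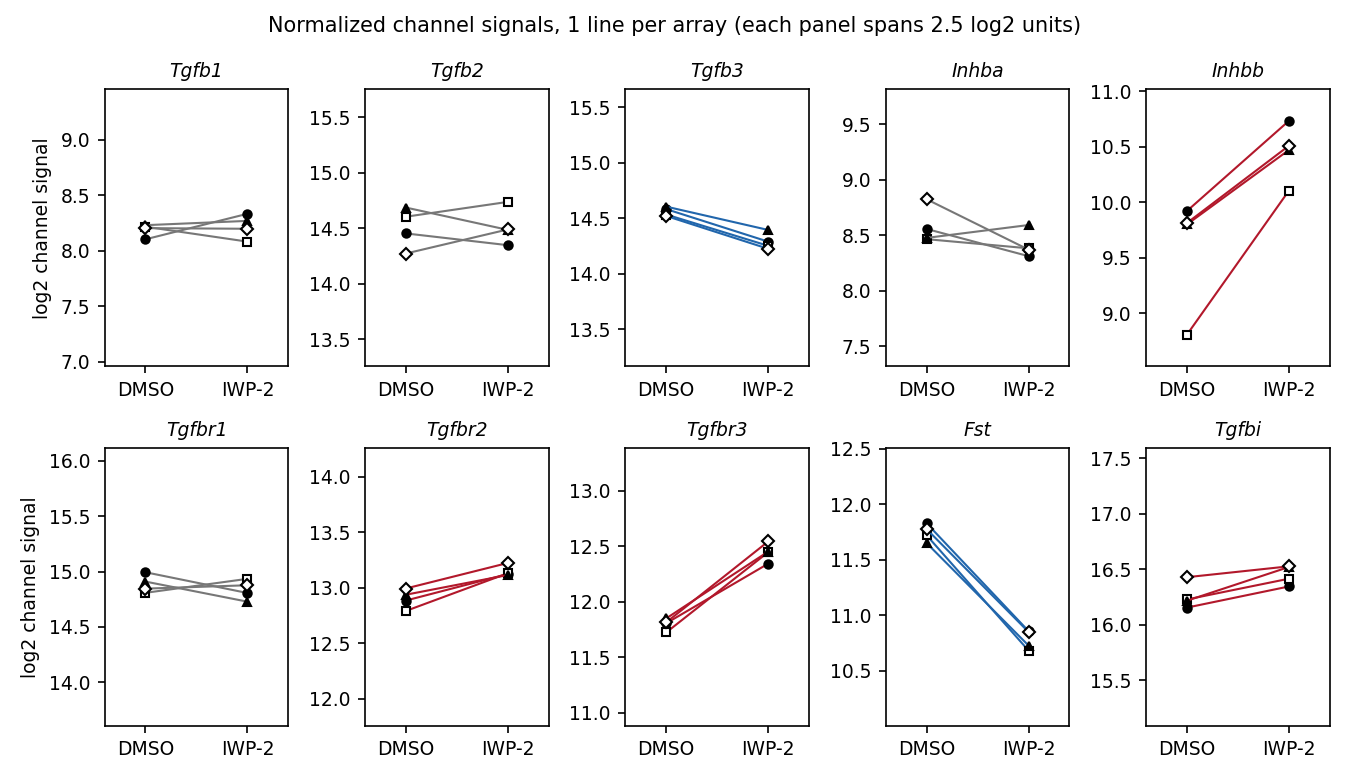
Normalized log2 channel signals of the 10 members in DMSO control and IWP-2 pools, with 1 line per array (filled symbols, treated RNA red; open symbols, treated RNA green; circle, square, triangle and diamond are arrays 1 to 4) and lines coloured blue for lower, red for higher and grey for not called. All treated pools lie below all controls for Fst and Tgfb3 and above them for Inhbb, Tgfbr2 and Tgfbr3, while the Tgfbi signals overlap although each array's line rises. Signals of different panels come from different probes and are not comparable.

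Promoter windows were searched on both strands for CTTTGAT and CTTTGTT, which are among the letters bound by the TCF/LEF factors of the WNT pathway. Other forms of these letters were not searched for, so a window with neither motif may still hold one of them. RefSeq windows (GRCm38.p6) were at hand for 7 of the 10 members, in 8 windows of 250 bases before the transcript start, and 2 members held CTTTGTT and none CTTTGAT. Over all 32851 promoter windows of this length, 5.03% held CTTTGTT, 3.21% held CTTTGAT and 8.06% held either. The windows of both activin subunit genes are shown because Inhbb had the largest rise of the members while Inhba did not pass the test, and that of Tgfb2 because it is the second with the letters, which are in capitals. The match lies 228 bases before the start of Inhba (chr13:16011601-16011850, plus strand) and 67 bases before that of Tgfb2 (chr1:186705990-186706239, minus strand), and the window of Inhbb (chr1:119422249-119422498, minus strand) holds neither motif. Each sequence is written 5′ to 3′ along the gene.
Inhba: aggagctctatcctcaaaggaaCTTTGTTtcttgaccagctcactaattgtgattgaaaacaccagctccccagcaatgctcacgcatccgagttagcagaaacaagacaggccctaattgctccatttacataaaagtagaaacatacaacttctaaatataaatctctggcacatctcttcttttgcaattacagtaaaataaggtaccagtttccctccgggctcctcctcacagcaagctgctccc
Inhbb: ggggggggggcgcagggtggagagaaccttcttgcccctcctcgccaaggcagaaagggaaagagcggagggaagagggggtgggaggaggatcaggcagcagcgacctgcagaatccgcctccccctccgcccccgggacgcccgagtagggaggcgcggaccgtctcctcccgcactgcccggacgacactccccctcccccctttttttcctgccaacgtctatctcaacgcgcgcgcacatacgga
Tgfb2: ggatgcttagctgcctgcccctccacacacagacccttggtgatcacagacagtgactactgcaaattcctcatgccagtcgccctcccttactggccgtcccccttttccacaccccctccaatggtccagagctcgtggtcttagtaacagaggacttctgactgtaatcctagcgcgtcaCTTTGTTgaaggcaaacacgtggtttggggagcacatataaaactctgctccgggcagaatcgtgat
The windows of Tgfb1 and Tgfbr1, which did not pass the test, and of Tgfbr2 and Tgfbi, which passed as higher, held neither motif, and no window was at hand for Fst, Tgfb3 and Tgfbr3. With so few windows no relation between the letters and the outcome can be read.

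Among the receptors, Tgfbr3 encodes betaglycan, a co-receptor that presents TGF-beta2 to the signaling receptors and binds inhibin. Its log2 ratios were 0.54, 0.72, 0.60 and 0.73 (mm9 chr5:107535818-107535877, minus strand). Control signals of 11.72 to 11.85 and treated signals of 12.34 to 12.54 did not overlap. The mean was 0.65 (95% interval 0.55 to 0.74, adjusted p = 1.4e-04, limma), a 1.57-fold higher level. It passed in all 18 alternative fits, with adjusted p from 1.7e-06 to 0.00751.

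Tgfbr2 encodes the type II receptor, which binds the ligand first and has constitutive kinase activity. The brighter of its 2 probes (mm9 chr9:115997155-115997214, minus strand) had log2 ratios of 0.24, 0.34, 0.18 and 0.23. Control and treated signals did not overlap, at 12.79 to 12.99 and 13.12 to 13.22. The mean of 0.25 (95% interval 0.15 to 0.35, adjusted p = 0.00612, limma) corresponded to a 1.19-fold higher level, and Tgfbr2 passed in all 18 alternative fits. The dimmer second probe averaged 0.35 ± 0.17 (SD, n = 4) and also passed when every probe was tested on its own (adjusted p over probes = 0.00908, limma).

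Tgfbr1 encodes the type I receptor ALK5, which carries the signal to the SMADs. Its brightest probe (mm9 chr4:47427736-47427795, plus strand) had log2 ratios of -0.19, 0.13, -0.18 and 0.03. As with Tgfb2, the values were lower where treated RNA was red, and the mean was -0.05 (95% interval -0.15 to 0.04, adjusted p = 0.353, limma). The second probe averaged -0.01 ± 0.15 (SD, n = 4). The probes of Tgfbr1 did not all give the same outcome, since another probe, listed under a transcript identifier of its own, averaged -0.17 ± 0.13 (SD, n = 4) and passed as lower when every probe was tested on its own (adjusted p over probes = 0.0229, limma). The fourth was above background in 1 of 4 control and 1 of 4 treated channels and was not tested.

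The ranges of the ligands and the receptors overlapped, with Inhbb above all 3 receptors and Tgfbr1 below Tgfb1 and Tgfb2. The median log2 ratio was 0.25 ± 0.07 (SD, n = 4) over the 3 receptors and -0.04 ± 0.07 over the 5 ligands (the median of the 5 mean log2 ratios was 0.01), with the receptor median higher on all 4 arrays by 0.35, 0.42, 0.14 and 0.24. An exact two-sided sign-flip permutation test over the 4 arrays gave p = 0.125, the smallest value that 4 arrays allow, so that this difference could not pass a threshold of 0.05. The same p, also 0.125 after adjustment over the 8 differences compared, was found for Tgfbr3 over Tgfbr2 (0.40 ± 0.08, SD, n = 4), Tgfbr3 over Tgfbr1 (0.70 ± 0.08), Tgfbr2 over Tgfbr1 (0.30 ± 0.11), Inhbb over Inhba, and Tgfb3 under Tgfb2 (-0.28 ± 0.23) and Tgfb1 (-0.30 ± 0.16). All 8 differences kept their sign on all 4 arrays, which fixes p at this smallest value and says no more than that. For Tgfb3 under Tgfb2 the sign on array 3 rested on a difference of only -0.0091. The pairs of genes were not listed in the plan of tests. The ligand group held 1 gene that rose, 1 that fell and 3 that did not pass, and the receptor group held 2 that rose and 1 that did not pass. Of all genes tested, 18.1% rose and 15% fell. With 5 and 3 genes, these counts cannot show a difference between the groups.

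The antagonist Fst encodes follistatin, which binds activins almost irreversibly and blocks their access to the receptors. Its probe (mm9 chr13:115243565-115243624, minus strand) had log2 ratios of -0.97, -1.04, -0.92 and -0.93. Control signals of 11.65 to 11.83 were well separated from treated signals of 10.68 to 10.86. The mean was -0.97 (95% interval -1.06 to -0.87, adjusted p = 3.9e-05, limma), a 1.95-fold lower level. It was the largest change of the 10 members in size and ranked 179 of the 22461 genes tested, counted from the lowest log2 ratio. Fst passed in all 18 alternative fits, with adjusted p from 4.8e-07 to 0.00751. The log2 ratio of Inhbb exceeded that of its antagonist by 1.78, 2.34, 1.59 and 1.62 on arrays 1 to 4, a difference of 1.84 ± 0.35 (SD, n = 4, exact sign-flip permutation p = 0.125). The pair joins the largest rise and the largest fall of the members, and its p is the smallest that 4 arrays allow.

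Tgfbi encodes an adhesive matrix protein first found as a transcript induced by TGF-beta. Its log2 ratios (mm9 chr13:56740460-56740519, plus strand) were 0.19, 0.19, 0.30 and 0.10. All 4 arrays were above 0, but control signals of 16.16 to 16.43 overlapped treated signals of 16.35 to 16.53. The mean was 0.19 (95% interval 0.09 to 0.30, adjusted p = 0.0156, limma), a 1.14-fold higher level. This was the least stable of the 6 calls. The adjusted p was 0.0621 without array 2 (log2 ratio 0.17), 0.0746 without array 3 (0.17), 0.0685 with the deposited table of fold changes (0.17) and 0.247 with median centring in place of loess (0.10), within a range of 0.00603 to 0.247 over 18 alternative fits.

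Counted by overlap, 2 members (Fst and Tgfb3) had all treated signals below all control signals, as did 11.5% of the genes tested, and 3 (Inhbb, Tgfbr2 and Tgfbr3) had all treated signals above, as did 10.9%. No member passed the study's filter when every one of the 4 arrays was asked for an intensity above 100 together with more than a 2-fold change. The paper describes this filter for 2 arrays per stage, so its array set differs from the one used here. Fst came nearest, with processed log2 ratios of -0.97, -1.08, -0.92 and -0.95, so that array 2 alone was past 2-fold. The spread between the 4 spots of a probe within an array was small beside the changes of Fst, Inhbb and Tgfbr3, with an SD of at most 0.06 for Fst, 0.14 for Inhbb and 0.07 for Tgfbr3.

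**Figure D3:**
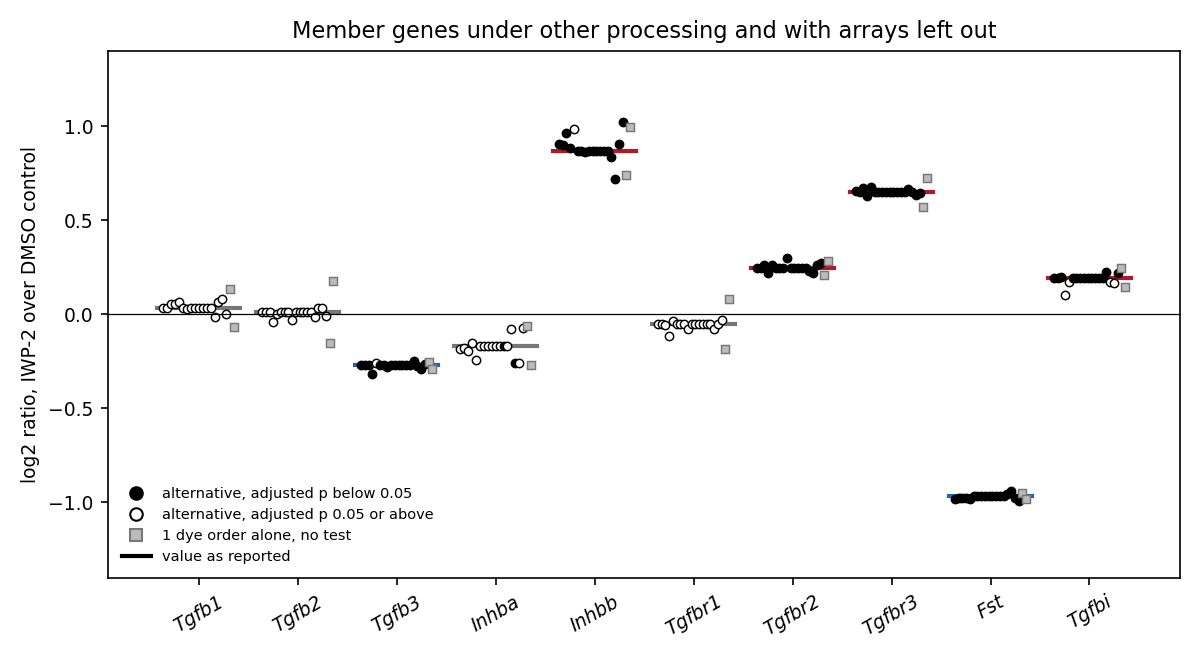
Log2 ratio of each member under the alternative fits (circles, filled where the adjusted p was below 0.05 and open where it was not) and in 1 dye order alone (grey squares, no test), with the reported value as a line. The 6 members that passed stayed on their side of 0 throughout. Fst, Tgfbr2 and Tgfbr3 have no open circle, Tgfb3 and Inhbb have 1 each and Tgfbi has 4.

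For the 6 members that passed, the genes with the nearest log2 ratios over the 4 arrays were found by Euclidean distance. Fst lay nearest to Btn2a2 (0.12), Adgrg2 (0.12) and Hottip (0.13), and 7 genes lay within a distance of 0.2. Inhbb lay nearest to Grm7 (0.17), Osmr (0.31) and Scn1a (0.33), with 1 gene within 0.2. Tgfbr3 lay nearest to Rnf213 (0.05), Adgra1 (0.05) and Stk26 (0.10), with 31 genes within 0.2. The smaller changes were far less distinctive, with 523 genes within 0.2 of Tgfb3, 771 of Tgfbr2 and 1049 of Tgfbi. The nearest were Nxt1, Ppp2r1b and Mro for Tgfb3, D8Ertd82e, Olfr1458 and Dennd2c for Tgfbr2, and Tle2, Pcyt2 and Ormdl2 for Tgfbi.

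The other genes of the pathway were grouped in 6 lists of 49 genes, of which 46 were tested. In all, 10 (21.7%) were lower, 8 (17.4%) were higher and 28 did not pass, with a median log2 ratio of 0.02 beside 0.0011 over all genes tested. Of all genes tested, 15% were lower and 18.1% higher. Inhbc, Mstn and Lefty1 were on the array but not above background.

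Of the other ligands of the SMAD2/3 branch, none of the 5 tested passed, beside 33.1% of all genes tested. The largest value was that of Inha, the alpha subunit that turns a beta subunit into inhibin, at 0.11 (adjusted p = 0.111, limma; 0.0961 to 0.415 over 18 alternative fits). Among 7 activin and accessory receptors, 3 rose and 1 fell, beside 18.1% and 15% of all genes tested. Bambi, a pseudoreceptor without a kinase domain that dampens TGF-beta and activin signaling and is itself a WNT target, had log2 ratios of -0.71, -0.32, -0.69 and -0.40. All 4 were below 0, larger in size where treated RNA was red, with a mean of -0.53 (adjusted p = 3.3e-04, limma) and of -0.84 with processed signals. Bambi was dim, with a mean processed signal not over 100 in either group, and the size of its change depended on the background handling. The activin receptors Acvr1b (0.19), Acvr1c (0.20) and Acvr2b (0.16) passed, but kept their direction without passing in 5 of 18, 4 of 17 and 8 of 18 alternative fits, and Acvr2b was at 0.04 with the mean over its probes. Acvr1c, whose probes were also dim, averaged -0.0023 over arrays 1 and 3 and -0.05 with the mean over its probes (adjusted p = 0.421, within 0.00585 to 0.421), which turned its direction. The counts for Acvr1b and Acvr2b include fits without array 1, 3 or 4, and those for Acvr1c fits without array 2 or 3.

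Among 5 extracellular inhibitors tested, Fstl3 and Fmod fell while Lefty2 and Dcn rose, beside 15% and 18.1% of all genes tested. Fstl3 encodes a follistatin-like protein that binds activin as follistatin does, and its log2 ratios were -0.31, -0.47, -0.50 and -0.56 (mean -0.46, adjusted p = 0.00105, limma). It fell on all 4 arrays and passed in all 18 alternative fits, as Fst did. Fmod, a collagen-binding proteoglycan that can bind TGF-beta, was at -0.23 (adjusted p = 0.0101, limma) on a dim probe. Lefty2, an antagonist of Nodal, was at 0.30 (adjusted p = 0.00288, limma; 0.17 over arrays 1 and 3 alone), and Dcn, the proteoglycan decorin, at 0.17 (adjusted p = 0.0287, limma). Dcn lost its call in 6 of 18 alternative fits, among them those without array 2 or array 3.

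Of the 11 genes for latency and activation of TGF-beta, 3 fell, 1 rose and 7 did not pass, where 15% of all genes tested fell and 18.1% rose. Thbs1, thrombospondin 1, an activator of latent TGF-beta, had log2 ratios of -0.32, -0.75, -1.0 and -0.62 (mean -0.67, adjusted p = 0.00462, limma). Ltbp1, which anchors latent TGF-beta in the matrix, had log2 ratios of -0.51, -0.34, -0.50 and -0.33 (mean -0.42, adjusted p = 6.4e-04, limma; -0.31 with the mean over its probes). Both were below 0 on all 4 arrays. Lrrc32, which tethers latent TGF-beta to the cell surface, was at -0.22 (adjusted p = 0.0183, limma), and it lost its call in 5 of 18 alternative fits, among them those without array 1, 3 or 4. The integrin subunit gene Itgav was at 0.18 (adjusted p = 0.0322, limma), lost its call in 7 of 18, among them those without array 1, 2 or 4, and averaged -0.0074 over arrays 1 and 3.

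Of the 8 intracellular transducers and brakes, 2 passed and both were lower, where 15% of all genes tested were lower and 18.1% higher. Smad2, Smad3 and Smad4 had log2 ratios of -0.02, -0.01 and 0.05 and did not pass. Tgif1, a SMAD corepressor, was at -0.16 (adjusted p = 0.0223, limma) and lost its call in 6 of 18 alternative fits, among them those leaving out any 1 array. Zfyve9, the SMAD anchor SARA, had log2 ratios of 0.21, -0.58, 0.31 and -0.48, which followed the dye order. Its mean of -0.14 (adjusted p = 0.0497, limma) lost its call in 14 of 18 alternative fits, including those without any 1 array, and over arrays 1 and 3 alone the mean was 0.26.

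Of 10 response genes, 2 fell, 2 rose and 6 did not pass. Smad7, the inhibitory SMAD that SMAD3 induces, had log2 ratios of -0.30, -0.32, -0.39 and -0.23 (mean -0.31, adjusted p = 0.00274, limma). Ctgf, a matricellular growth factor, was at -0.40 (adjusted p = 0.00873, limma). Pmepa1, a feedback inhibitor of TGF-beta signaling, had log2 ratios of 0.43, 0.41, 0.26 and 0.32 (mean 0.36, adjusted p = 0.00239, limma), and Cdkn1a, the cell-cycle inhibitor p21, was at 0.40 (adjusted p = 0.00169, limma). With the mean over its probes Cdkn1a was at 0.16 (adjusted p = 0.0166, within 0.00108 to 0.0904 over 18 alternative fits). The shares of the response genes, 20% lower and 20% higher, are near the 15% and 18.1% of all genes tested. With the deposited table of rounded fold changes, Fmod, Thbs1, Ctgf, Pmepa1 and Cdkn1a missed the threshold (adjusted p = 0.113, 0.141, 0.126, 0.0513 and 0.0904, limma), and they passed in every other fit.

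**Figure D4:**
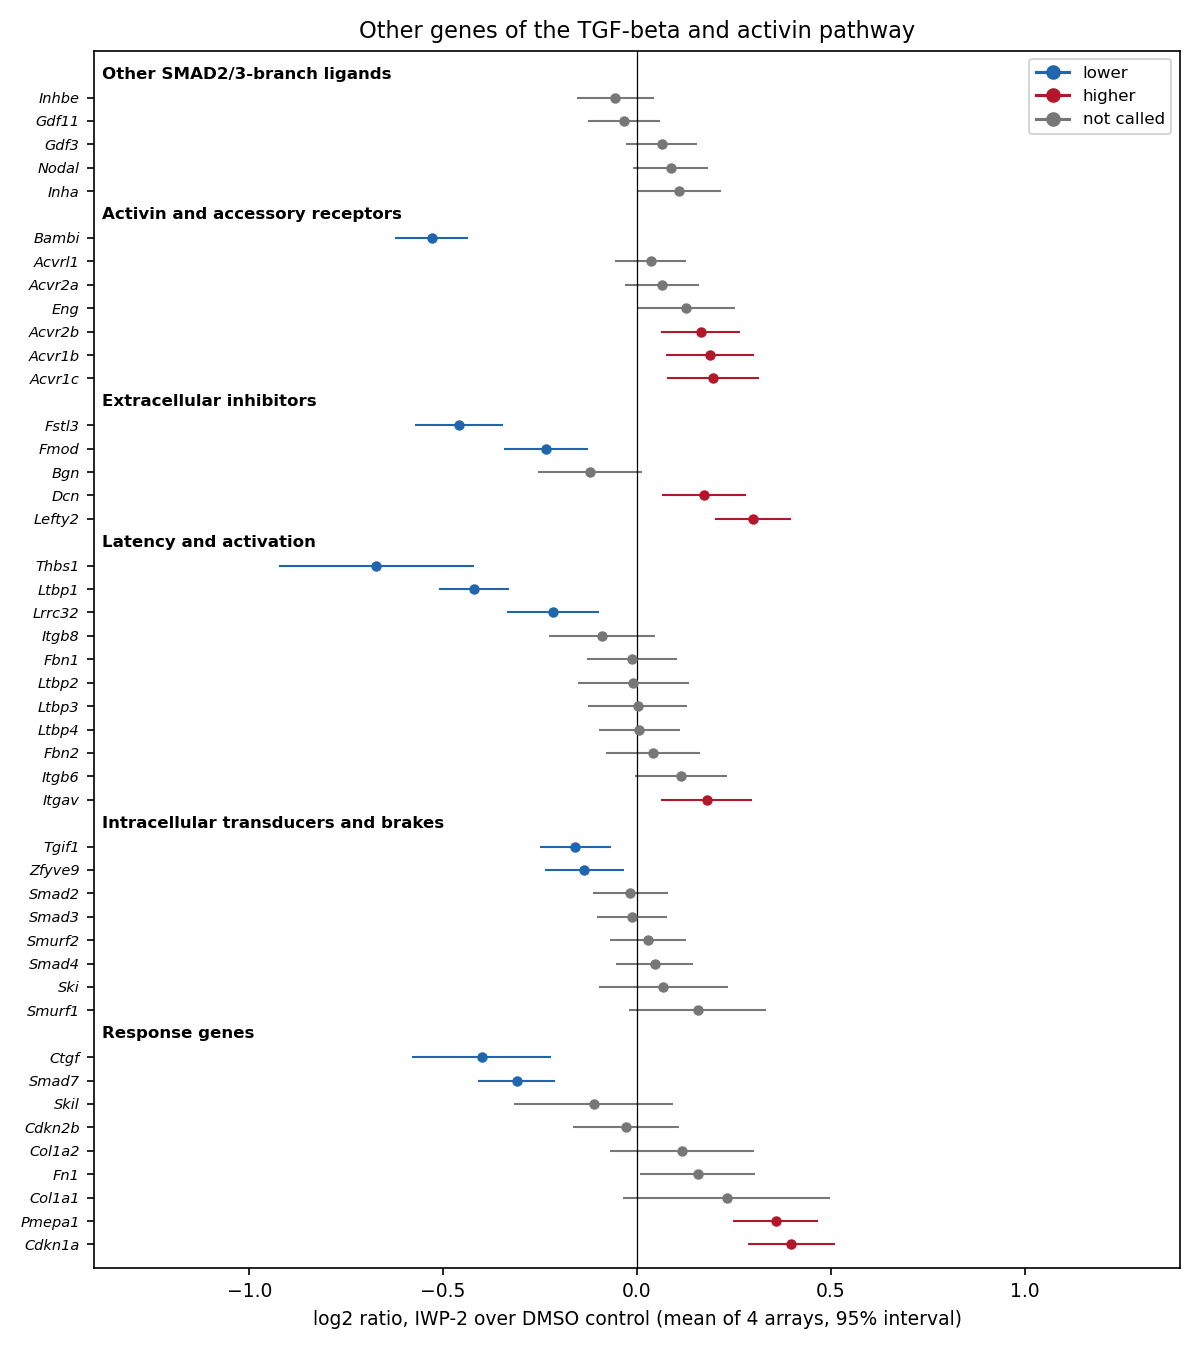
Log2 ratio of IWP-2 over DMSO control (mean of 4 arrays, with its 95% interval) for 45 of the 46 other pathway genes tested, grouped by list and coloured by the outcome of the limma test. The 10 genes that were lower include Thbs1, Bambi (dim probe), Fstl3 and Ltbp1. The 8 that were higher have smaller changes than these, up to 0.40 for Cdkn1a, which was at 0.16 with the mean over its probes.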

How the data were processed

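The authors hybridized each array with 1 treated and 1 control pool and ran Agilent Feature Extraction 10.7.3.1. The deposited mean and background intensity values per spot are raw, and the deposited processed intensity values are background-subtracted and dye-normalized. The deposited log10 ratio (red over green) was used to check direction. The authors' series table, a score here, holds signed fold changes rounded to 1 decimal, of unstated normalization, and served as an alternative.

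Here spots were background-corrected (normexp, offset 50), loess-normalized within arrays and averaged per probe, leaving out outlier spots. A probe was kept if over 0.5 of its spots were well above background on all arrays of either group, and a gene's brightest probe stood for it. Ratios were fitted with limma 3.58.1 in R 4.3.3 with a dye term. Channel signals are loess and Aquantile values. Depth does not apply, and precision rests on the 4 arrays, which the labels number as replicates. The study's text differs on how many pools this stage had, so arrays 1 and 2, and arrays 3 and 4, may be dye swaps of the same pools, and every n = 4 counts arrays. Across genes, the difference of array 1 minus array 3 correlated with that of array 2 minus array 4 at r = -0.04. Whether pools were shared was not tested further. Nothing states that pools came from separate litters or cultures. The p-values and intervals thus measure the spread between these arrays left after the dye term, which may be technical. An SD between arrays still includes the dye difference. Without the dye term Zfyve9, Acvr1c and Itgav lost the call (adjusted p = 0.573, 0.161 and 0.178, limma), and the members kept their outcomes. The members and lists were chosen with earlier results of these data known. Named were all members, pathway genes past the test, the largest value of each list, and the 3 genes nearest each member that passed. The 3 SMADs were added after their values were seen, and 1 pathway gene that enters the counts is not reported here. Probe positions are those of the files (mm9), and exon assignment was not made. Alternatives are given in the closing section.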

Additional observations from a re-analysis of the deposited data

Results flagged for a closer look

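Of 31 genes and medians checked, 1 had an array far from the other 3 by Dixon's criterion, where chance gives about 1.55. For Tgfb3 the log2 ratio of array 3, -0.21, was the smallest in size, the other 3 arrays lying between -0.28 and -0.30.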

How the results depend on the processing

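Of 21 alternatives, 18 gave a test. Over the 33 genes named from the members, the pathway lists and the WNT targets, 66 values lost the call, 2 gained one (Inhba) and 4 of genes that had passed turned direction. These 4 were Acvr1c at -0.048 with the mean over its probes and -0.0023 over arrays 1 and 3 alone, and, over arrays 1 and 3 alone, Itgav at -0.0074 and Zfyve9 at 0.26. Among members that did not pass, values turned sign as well, ranging from -0.07 to 0.13 for Tgfb1, -0.15 to 0.18 for Tgfb2 and -0.18 to 0.08 for Tgfbr1. The deposited table of rounded fold changes gave 1 member lower and 2 higher, 4 pathway genes lower and 4 higher, and 2050 genes lower and 1833 higher of all, against 3360 and 4069. With arrays 1 and 2 and arrays 3 and 4 averaged as dye swaps, 3 members were lower and 4 higher, beside 3257 and 4093 of all genes. That fit rests on 2 averaged ratios per gene. The study's filter, asked here of all 4 arrays (no test), left 0 members and 0 pathway genes in either direction, and 104 genes lower and 22 higher. Pathway genes higher numbered 5 with processed signals and 4 with median centring, against 8. The cause was not tested. Leaving out 1 array in turn gave 2 to 3 members lower and 3 to 4 higher, 7 to 10 pathway genes lower and 5 to 8 higher (5 without array 1 or array 4), and 2177 (without array 3) to 2811 genes lower and 2879 to 3348 higher. With 1 array left out in turn, the median of the ligands ran from -0.06 to -0.02 and that of the receptors from 0.22 to 0.27. Among the other alternatives, the ligand median turned to 0.01 with arrays averaged as dye swaps. It was also 0.01 with a processed signal over 100, where Tgfb1 and Inhba were left out of the median. The receptor median was 0.21 over arrays 1 and 3 alone and 0.30 with the mean over the probes of a gene. The other counts kept within 1.5 times, and the medians moved by less than their SD between arrays. No paired analysis was possible because all 4 arrays form 1 group and each ratio already pairs its 2 pools. Slide and scan could not serve as a block since all arrays shared 1 slide. For the dim probes of Tgfb1 and Inhba, processed intensities stayed under 111, which limits what could be detected there. Bambi, Acvr1c and Fmod had no probe with a mean processed signal over 100 in either group, so their ratios rest on dim probes as well.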
